A study of Mus musculus with 9 samples.

Results

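A set of 9 long noncoding RNA genes, Malat1, Neat1, Kcnq1ot1, Meg3, H19, Gas5, Snhg1, Snhg11 and Snhg12, were followed through an ac4C immunoprecipitation of mouse testis RNA. They were picked by gene symbol, by a rule that used no measured value, and are 9 of the 55401 genes in the count table. Of these, 8 had at least 1 count in some library and 7 passed the filter on low counts and were tested, among 22510 genes tested in all. By what they are known for, 2 are retained in the nucleus (Malat1 and Neat1), 3 are transcribed from imprinted clusters (Kcnq1ot1, Meg3 and H19) and 4 carry small nucleolar RNAs (snoRNAs) in their introns (Gas5, Snhg1, Snhg11 and Snhg12).

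All libraries came from testes of wild-type male mice, which the study's methods describe as ICR animals without giving an age for these samples. Poly(A) RNA, mixed with an in vitro transcribed β-globin probe that carried ac4C, was either sequenced as it was (input, 3 libraries), recovered on beads with a rabbit control immunoglobulin (IgG, 3 libraries) or recovered with an antibody against N4-acetylcytidine (acRIP, 3 libraries). The study asked which transcripts carry ac4C, and called a transcript ac4C(+) only where acRIP exceeded both controls. No source used here says whether the 3 libraries of a group were separate animals or precipitations, so p-values measure only the spread between these libraries.

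Malat1 is an abundant transcript of nuclear speckles, and Neat1 is the scaffold around which paraspeckles assemble. Both are cut at the 3′ end by RNase P rather than by ordinary polyadenylation, and the long form of Neat1 has no poly(A) tail, while its short form does. Kcnq1ot1 is transcribed from the paternal chromosome, antisense to Kcnq1, and silences genes around it, whereas H19 and Meg3 are expressed from the maternal chromosome. Gas5 and the Snhg genes are spliced so that their introns release snoRNAs, and the spliced Gas5 RNA is a classic terminal oligopyrimidine transcript, whose decay depends on translation.

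Poly(A) RNA was selected with oligo(dT), and cDNA synthesis was primed with oligo(dT). A-rich stretches inside or at the annotated end of the nuclear transcripts and Kcnq1ot1 are therefore shown first, with a match in Snhg11. Sequences were read from the transcribed strand of the GRCm38 (mm10) genome over merged exons. The capitals mark AAAAAGCAAAA, the longest stretch that ends the annotated Neat1 and also occurs in Malat1. It lies at the 3′ end of Neat1, 292 bases before the annotated end of Malat1 and 951 bases before that of Snhg11, at chr19:5824708-5824737 (minus strand), chr19:5795978-5796007 (minus strand) and chr2:158385175-158385204 (plus strand).
Neat1: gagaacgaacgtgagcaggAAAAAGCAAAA
Malat1: ctagctttaaaaaaaAAAAAGCAAAAgacg
Snhg11: aaaccaaaaacccacAAAAAGCAAAAaacc
Those 11 letters, searched on the transcribed strand only, occur in 326 of 35700 genes, or 0.913%. For Kcnq1ot1 the capitals mark the first 22 bases of its longest run of A, at chr7:143226964-143226993 (minus strand).
Kcnq1ot1: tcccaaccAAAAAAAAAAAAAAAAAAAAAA
The whole run has 41 bases, a length reached by 0.0504% of the same genes, whose median longest run is 6. The longest runs of the other members were 12 in Malat1 and Snhg12, 7 in Neat1, 16 in Meg3, 9 in Snhg11, 5 in Gas5 and Snhg1 and 4 in H19.

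For the snoRNA hosts, the annotated start is the informative stretch. The RefSeq promoter table (GRCm38.p6) held 7 of the 9 members. Each line gives 10 bases before and 20 from the start on the plus strand, with the unbroken pyrimidines from the start in capitals, for Snhg12 (chr4:132308668-132308697), the downstream and the upstream start of Gas5 (chr1:161035156-161035185 and chr1:161034591-161034620) and Snhg1 (chr19:8723477-8723506).
Snhg12: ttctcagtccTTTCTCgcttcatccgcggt
Gas5, downstream start: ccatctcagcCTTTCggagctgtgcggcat
Gas5, upstream start: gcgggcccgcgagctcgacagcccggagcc
Snhg1: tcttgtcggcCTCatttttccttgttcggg
Runs of at least 5 pyrimidines, as in Snhg12 and at the downstream Gas5 start, occurred at 4.44% of 32851 promoters, and runs of at least 3 at 10.7%. The start of Snhg11 had 0. These are descriptions of letters in the annotation, not measured start sites.

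The tissue label held, in that 6 of 6 spermatid markers were detected, with a summed level of 17230 to 19556 CPM (counts scaled to each library's size) in input. The Sertoli marker Rhox5 had no count in any library. Markers of erythrocytes (3 genes) summed to 19 to 21.9 CPM in input, 14.3 to 16.3 in IgG and 1.90 to 2.32 in acRIP, and those of epididymis (4 genes, with Lcn5 at 0 throughout) to 6.0 to 6.37, 4.03 to 4.19 and 0 to 0.386. Total counts per library ran from 22023925 to 31340090 in input, 14647542 to 18786779 in IgG and 16025779 to 18639134 in acRIP. Markers of other cell types differed in either direction. Endothelial markers (3 genes) summed to 7.98 to 8.28 CPM in input, 4.82 to 6.31 in IgG and 11.5 to 13.8 in acRIP. By the tests described below, 1 of them was called higher and 1 lower in acRIP over input. Spermatocyte markers (6 genes) summed to 742 to 767, 728 to 762 and 572 to 600 CPM. Input, IgG and acRIP were all taken from testis poly(A) RNA, so differences between these groups do not measure cell numbers. Within input, fewer cells of a type and less RNA per cell cannot be told apart in bulk RNA.

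In input, levels were compared between genes as fragments scaled to merged exon length and library size (FPKM). Gas5 was highest, at 7.37 ± 0.956 FPKM (SD, n = 3), followed by Malat1 at 3.40 ± 0.291. Snhg12 (1.45 ± 0.0808) and Snhg1 (1.45 ± 0.139) overlapped, as did Snhg11 (0.703 ± 0.0321) and Neat1 (0.683 ± 0.0660) below them. Kcnq1ot1 stood at 0.177 ± 0.0149 FPKM over its 93092 bases, and H19 at 0.0453 ± 0.0574, while Meg3 had no count. In IgG and acRIP the order changed at the top, with Malat1 at 20.1 ± 1.01 and 21.7 ± 0.615 FPKM and Gas5 at 9.79 ± 0.296 and 10.4 ± 0.99. In acRIP Neat1 came next, at 1.62 ± 0.148 FPKM, overlapping Snhg12 (1.24 ± 0.429), which overlapped Snhg1 (0.864 ± 0.141). Kcnq1ot1 (0.372 ± 0.00816) and Snhg11 (0.146 ± 0.108) followed without overlap. In IgG the ranges of Snhg1, Snhg11, Snhg12 and Neat1 overlapped, each with the next. Merged exons filled 2969 of 2969 bases of Snhg1, 2402 of 2402 of Snhg12 and 3760 of 4118 of Gas5. The length behind their FPKM thus takes in snoRNA-bearing stretches, and the order between genes depends on that length.

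**Figure D1:**
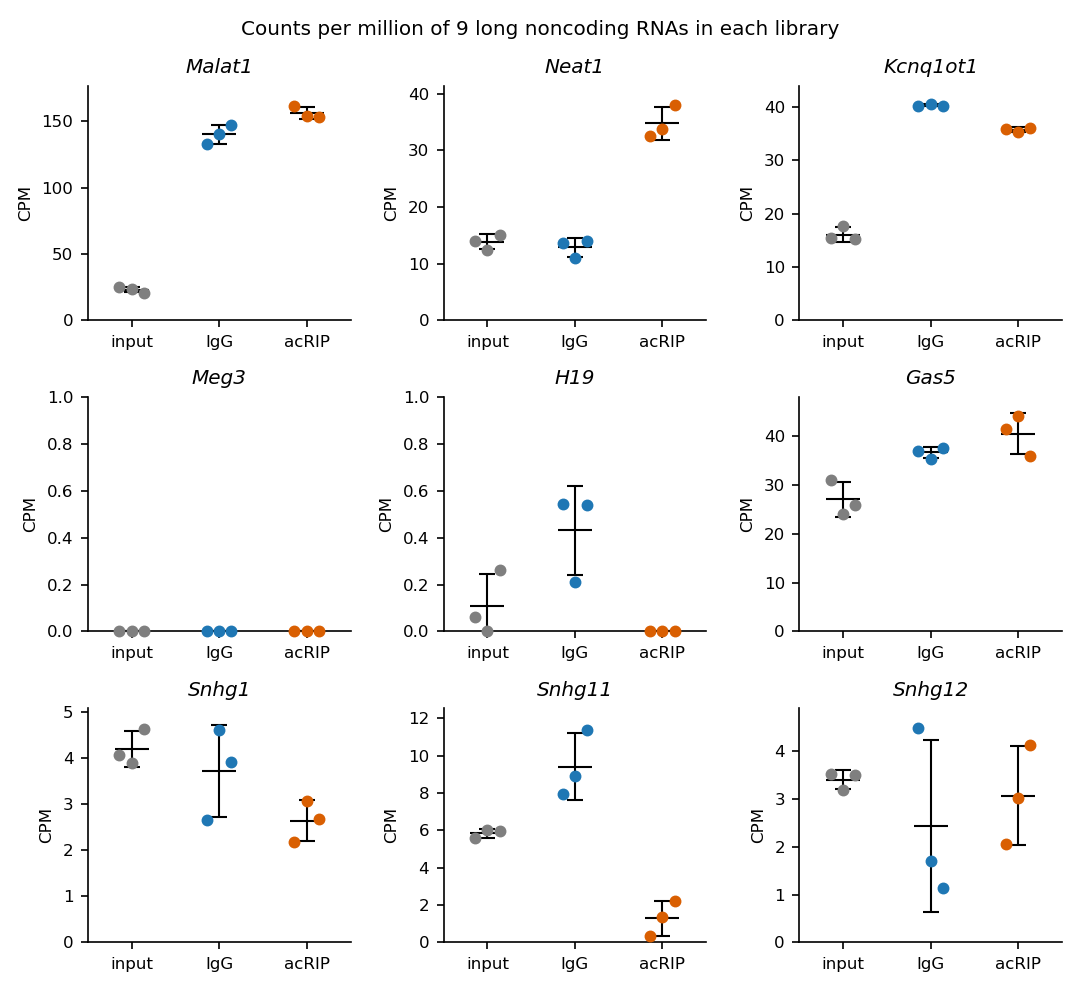
Level of each member in CPM (vertical axis, linear, from 0) in the 3 input, 3 IgG and 3 acRIP libraries. Points are libraries in replicate order, and the bars give the mean ± SD, cut at 0. Malat1 and Kcnq1ot1 are high in both IgG and acRIP, Neat1 is high in acRIP alone, Snhg11 is low in acRIP, and Meg3 has no count.

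A gene was called when edgeR's quasi-likelihood test gave a Benjamini-Hochberg adjusted p under 0.05 over all 22510 genes and the fold change exceeded 2. Of the 7 tested members, 2 were called in acRIP over IgG (Neat1 higher, Snhg11 lower), where 32.4% of all genes tested were called, 11.5% higher and 20.9% lower. In acRIP over input 4 were called (Malat1, Neat1 and Kcnq1ot1 higher, Snhg11 lower), against 40.6% of all genes, 17.7% higher and 22.9% lower. In IgG over input 2 were called (Malat1 and Kcnq1ot1, both higher), against 20.7% of all genes, 13.5% higher and 7.22% lower. Against both controls Neat1 was higher, as were 7.88% of genes, and Snhg11 lower, as were 17%. The 3 comparisons share libraries pair by pair, so their values are given side by side and not as separate evidence. Libraries of the 2 groups did not overlap in CPM for 65.6% of all genes in acRIP over IgG, 75% in acRIP over input and 58.9% in IgG over input.

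**Figure D2:**
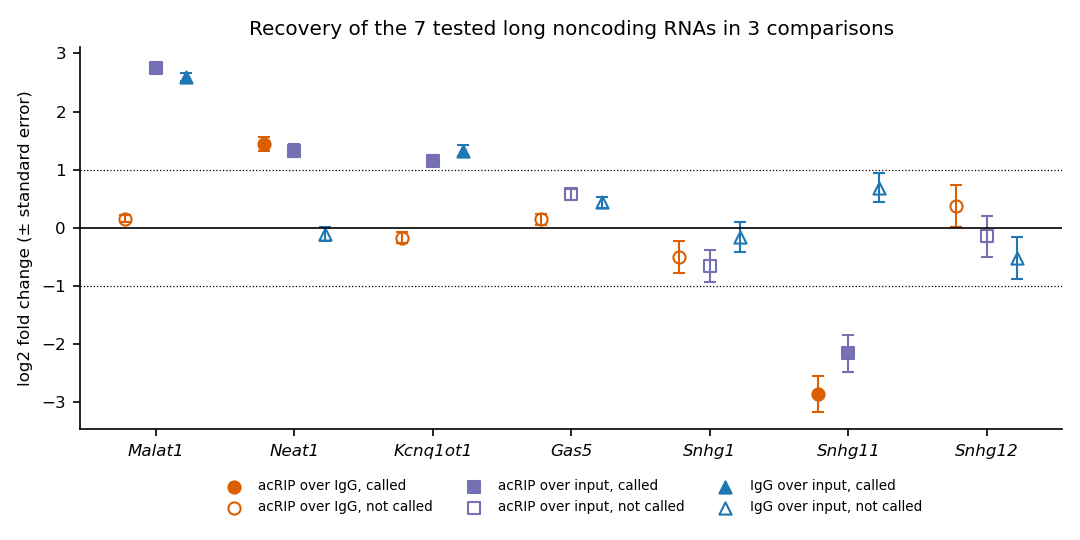
Log2 fold change (vertical axis) of the 7 tested members in acRIP over IgG, acRIP over input and IgG over input, with bars of 1 standard error from edgeR. Filled symbols were called and open ones were not, and dotted lines mark a fold change of 2. Neat1 and Snhg11 are the members called in acRIP over both controls, and Malat1 and Kcnq1ot1 those called in IgG over input.

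Neat1 was the nuclear transcript recovered with the antibody above both controls. It had 445, 282 and 345 counts in the input libraries, 200, 208 and 260 in IgG and 504, 604 and 624 in acRIP. Scaled to library size this was 13.8 ± 1.32 CPM in input, 12.9 ± 1.61 in IgG and 34.7 ± 2.92 in acRIP (SD, n = 3 each). The 3 acRIP libraries, from 32.4 to 38.0 CPM, lay above all 6 others, and input and IgG overlapped. The change was 2.7-fold over IgG (log2 1.44, SE 0.12, adjusted p = 2.26e-11) and 2.51-fold over input (log2 1.33, SE 0.12, adjusted p = 1.33e-11), and IgG over input was -0.11 (SE 0.12, adjusted p = 0.488). When single libraries were omitted, acRIP over IgG stayed between 1.33 and 1.5. On the study's own scale, the ratio of mean FPKM + 1, Neat1 did not reach a fold change of 2, with log2 ratios of 0.69 over IgG and 0.64 over input.

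Malat1 was much higher in both precipitates than in input, with the antibody and with control IgG. Counts were 793, 539 and 476 in input, 1951, 2648 and 2740 in IgG and 2503, 2761 and 2509 in acRIP. In CPM these were 23.2 ± 2.06, 140.1 ± 7.41 and 156.1 ± 4.44 (SD, n = 3 each). The lowest precipitated library had 132.5 CPM and the highest input library 24.8. Malat1 was 6.71-fold higher in acRIP than in input (log2 2.75, SE 0.07, adjusted p = 1.39e-26) and 6.03-fold higher in IgG than in input (log2 2.59, SE 0.07, adjusted p = 6.64e-26). Between the 2 precipitates the libraries did not overlap, yet the difference was 0.15 on the log2 scale (SE 0.06, adjusted p = 0.0208), under the fold limit. By edgeR it was 0.11 without IgG replicate 1 (adjusted p = 0.130) and 0.14 without acRIP replicate 1 (adjusted p = 0.0804).

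Both nuclear transcripts can be set against each other within a library, where depth cancels. Neat1 had 0.561, 0.523 and 0.725 counts for each Malat1 count in input, 0.103, 0.0785 and 0.0949 in IgG and 0.201, 0.219 and 0.249 in acRIP. The 3 groups did not overlap, and IgG was lowest. With 3 libraries against 3, no permutation test of this ratio can reach a p under 0.05, and none was run.

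Genes of 16 paraspeckle proteins were all tested, as mRNA recovered from poly(A) RNA. Their values measure neither the proteins nor the paraspeckles. In acRIP over IgG 1 was called higher (Nono, log2 1.09), with a list median of 0.15 against -0.09 for all genes tested. Of all genes tested, 11.5% were called higher and 20.9% lower in that comparison. Nono was at 0.98 without acRIP replicate 3, under the fold limit, and was not called over input (0.75). Sfpq was called higher in acRIP over input (log2 2.82) and in IgG over input (2.53), and was not called over IgG (0.28). Sfpq, with 257, 185 and 210 counts in input, 828, 854 and 850 in IgG and 863, 1086 and 1025 in acRIP, was high in both precipitates. The proteins encoded by Nono and Sfpq bind Neat1 and hold the paraspeckle together.

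Of 19 matched genes in a list of other nuclear or chromatin-associated long noncoding RNAs, 14 were tested. In acRIP over IgG 3 were called higher and 3 lower, with a median of -0.03, and in acRIP over input 2 and 2, with a median of -0.22. Of all genes tested, 11.5% were called higher and 20.9% lower over IgG, and 17.7% and 22.9% over input. Their medians were -0.09 and -0.10. Ftx, a neighbour of Xist in the X-inactivation centre, was called higher than both (log2 1.38 over IgG, 2.62 over input), as was Sox2ot, which overlaps Sox2 (1.11 and 2.10). Hotair, a transcript of the HOXC cluster, was called lower than both (-1.85 and -1.56), as was Mirg, a microRNA-bearing transcript downstream of Meg3 (-1.83 and -1.34). Ftx and Sox2ot had values of 1.25 and 0.99 in IgG over input, of which only that of Ftx was called. That call was lost without IgG replicate 2 (0.83) and without input replicate 3 (1.13). Among all 2040 lincRNA genes tested, 11.7% were called higher than both controls and 25.7% lower.

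Kcnq1ot1 was the imprinted transcript with the most counts, and it too was high in both precipitates. It had 494, 398 and 346 counts in input, 592, 765 and 747 in IgG and 558, 631 and 593 in acRIP. The CPM were 16.1 ± 1.34, 40.3 ± 0.203 and 35.8 ± 0.462 (SD, n = 3 each), with no overlap between any 2 groups and IgG highest. Kcnq1ot1 was 2.51-fold higher in IgG than in input (log2 1.33, SE 0.09, adjusted p = 5.86e-14) and 2.23-fold higher in acRIP than in input (log2 1.15, SE 0.09, adjusted p = 1.41e-12). AcRIP over IgG was -0.17 (SE 0.09, adjusted p = 0.0932). On the FPKM + 1 scale neither change over input reached the fold limit (0.29 and 0.22), since its FPKM was below 1 in every library.

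Length and runs of A went with recovery on IgG in the table at large. Genes with merged exons of at least 15000 bases (409 tested) had a median IgG over input of 0.41, and 22.2% of them were called higher, against 13.5% of all genes. Genes with a run of A of at least 20 (538 tested) had a median of 0.32, with 24.3% called higher, and those holding AAAAAGCAAAA (266 tested) 0.19 with 21.1%. Kcnq1ot1 is in the length class and the class with long runs of A, Neat1 in the length class, and Neat1, Malat1 and Snhg11 in the class with that motif. Longer genes have more room for either stretch, and the part of length or of A runs in the values of the members was not tested. Neat1, with 20771 bases and AAAAAGCAAAA at its end, had -0.11 in IgG over input.

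Kcnq1ot1 lies within Kcnq1 on the opposite strand, and the strand setting of the counting was not given in the sources used here, so reads from introns of Kcnq1 cannot be told apart from Kcnq1ot1. Kcnq1 itself had 80, 55 and 38 counts in input, 29, 31 and 16 in IgG and 33, 46 and 43 in acRIP, with log2 values of 0.72 in acRIP over IgG and 0.14 in acRIP over input, neither called.

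H19 was near the limit of detection and was not tested. It had 2, 0 and 6 counts in input, 8, 4 and 10 in IgG and 0 in each acRIP library. The IgG libraries, at 0.431 ± 0.190 CPM, lay above all acRIP libraries, and input spanned from 0 to 0.263 CPM. A count of 0 allows up to 3 counts per library, so acRIP was lower than the IgG mean of H19 by at least 2.38-fold. This becomes at least 1.19-fold if both mates of a read pair were counted and 3 pairs make 6 counts. These floors cover counting error in acRIP only, and not that of the IgG counts. The IgG library with 4 counts stood at 0.212 CPM, against acRIP floors of 0.181 CPM (3 counts) and 0.362 CPM (6 counts). Low counts were mostly even, 81.9 to 84.3% of those from 1 to 20, and whether mates were counted singly is not stated. Without the filter on low counts, acRIP over IgG passed for H19 with an adjusted p of 0.00611 by edgeR and 0.00700 by DESeq2. In the same fits acRIP over input did not pass, with an adjusted p of 0.081 by edgeR and 0.109 by DESeq2. The erythrocyte and epididymis markers were lower in acRIP as well, whereas endothelial, peritubular myoid and macrophage markers summed higher there than in input. Single genes within those sums went both ways. In acRIP over input, 1 macrophage marker was called higher and 3 lower, 1 endothelial marker higher and 1 lower, and 1 peritubular myoid marker higher. The part of any of these in the H19 value was not tested.

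Meg3 had 0 counts in all 9 libraries. At a floor of 3 counts per library, this allows at most 0.00753 FPKM in input, 0.0113 in IgG and 0.0103 in acRIP. As for H19, these bounds would be higher if both mates were counted and 3 pairs make 6 counts. Only 1.5% of its 18089 exonic bases are shared with exons of other genes. Its neighbours Dlk1 and Rtl1 also had no count and Rian had 1, whereas Mirg, downstream in the same cluster, was tested and is given above.

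The list of 20 genes from the imprinted clusters of Kcnq1ot1, H19 and Meg3 had 11 tested genes. In acRIP over IgG 1 was called higher and 3 lower, with a median of -0.18, and in acRIP over input 2 and 3, with a median of -0.18. Over all genes tested, 11.5% were called higher and 20.9% lower over IgG, with a median of -0.09. Over input these were 17.7% and 22.9%, with a median of -0.10. Th, which encodes tyrosine hydroxylase, was called higher than both controls (log2 2.81 and 2.38) on 18, 17 and 20 acRIP counts against 2, 4 and 2 in IgG. With counts halved, or with at least 10 counts asked of every library, Th did not pass the filter and the call was lost. Slc22a18, a transporter gene of the Kcnq1 cluster, was called lower than both (-1.28 and -1.12), as was Mirg. Osbpl5, a lipid-transfer protein gene, was also called lower than both, from 100, 84 and 66 counts in input and 14, 14 and 24 in IgG to 0, 4 and 2 in acRIP.

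Snhg11, a host of 2 annotated snoRNAs, was lower in acRIP than in either control. Counts were 178, 136 and 136 in input, 117, 168 and 212 in IgG and 5, 24 and 36 in acRIP. The CPM were 5.85 ± 0.246, 9.42 ± 1.78 and 1.29 ± 0.937 (SD, n = 3 each), and no 2 groups overlapped. Snhg11 was 7.24-fold lower in acRIP than in IgG (log2 -2.86, SE 0.31, adjusted p = 3.20e-09) and 4.49-fold lower than in input (log2 -2.17, SE 0.31, adjusted p = 3.12e-07). IgG over input was 0.69 (SE 0.25, adjusted p = 0.0230), under the fold limit. The acRIP libraries varied among themselves from 0.322 to 2.19 CPM. Without acRIP replicate 3 the value over IgG was -3.45 and without acRIP replicate 1 it was -2.42, and over input -2.75 and -1.72, with every call kept. On the FPKM + 1 scale the values were -0.88 and -0.57, under the fold limit. Snhg11 is annotated as protein coding in the release used for names, and its coordinates in the table differ from that release.

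Gas5, the host of 10 annotated snoRNAs, did not reach the fold limit in any of the 3 comparisons. It had 994, 545 and 593 counts in input, 546, 668 and 700 in IgG and 646, 789 and 589 in acRIP, or 27.1 ± 3.6, 36.7 ± 1.17 and 40.5 ± 4.20 CPM (SD, n = 3 each). All precipitated libraries lay above all input libraries, and acRIP and IgG overlapped. The log2 values were 0.58 in acRIP over input (SE 0.10, adjusted p = 4.08e-06), 0.43 in IgG over input (SE 0.10, adjusted p = 0.000352) and 0.14 in acRIP over IgG (SE 0.10, adjusted p = 0.202).

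Snhg1, the host of 8 annotated snoRNAs, had 130, 88 and 106 counts in input, 39, 87 and 73 in IgG and 34, 55 and 44 in acRIP. Its CPM were 4.20 ± 0.394, 3.73 ± 0.995 and 2.65 ± 0.443 (SD, n = 3 each). The acRIP libraries lay below all input libraries and overlapped IgG. The value over input was -0.66 (SE 0.27, adjusted p = 0.0288), short of the fold limit, and that over IgG was -0.50 (SE 0.28, adjusted p = 0.115).

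Snhg12, with 5 annotated snoRNAs, had widely scattered libraries. Counts were 113, 72 and 80 in input, 66, 32 and 21 in IgG and 32, 54 and 68 in acRIP, or 3.41 ± 0.193, 2.44 ± 1.80 and 3.07 ± 1.04 CPM (SD, n = 3 each). All groups overlapped, and the log2 values were 0.37 in acRIP over IgG (SE 0.37, adjusted p = 0.389) and -0.15 in acRIP over input (SE 0.35, adjusted p = 0.715). The result rested on IgG replicate 1, the library with 4.48 CPM. Without it, Snhg12 was called higher in acRIP than in IgG (log2 1.11, adjusted p = 0.0105) and lower in IgG than in input (-1.26, adjusted p = 0.00504).

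Of the snoRNA genes themselves, 25 lie in the 4 hosts, and each had 0 counts in all 9 libraries. Over all genes counted, 228 of 1507 snoRNA genes had at least 1 count. Of the exonic bases, 17.8% in Gas5, 20.9% in Snhg1 and 19.6% in Snhg12 are shared with other genes, and reads lying on both a host and a snoRNA may have been assigned to neither. The counting setting for such reads was not given in the sources used here.

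A further 18 noncoding snoRNA-host genes were listed, of which 16 matched and 15 were tested. In acRIP over IgG 4 were called higher and 2 lower, with a median of 0.40, and in acRIP over input 5 and 2, with a median of 0.63, against -0.09 and -0.10 for all genes. The shares of all genes tested were 11.5% higher and 20.9% lower over IgG, and 17.7% and 22.9% over input. Both list medians were the same with genes at 0 set to their bounds. Snhg14, the host transcript of the Prader-Willi region, was called higher than both controls (log2 1.31 over IgG, 2.39 over input), as was Snhg17 (1.28 and 1.22). Snhg5 (1.06) and Snhg6 (1.47) were called higher than IgG but not than input. Snhg5 was at 0.98 without IgG replicate 3, under the fold limit. In IgG over input Snhg14 had a log2 value of 1.07, just past the limit, which was 0.96 without IgG replicate 3, 0.997 without input replicate 1 and 0.97 with upper quartile normalization, none of them called.

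Snhg15 and Snhg16 had 0 counts in all acRIP libraries. Snhg15 had 93, 58 and 42 counts in input and 24, 42 and 44 in IgG. This makes acRIP at least 11.4-fold lower than the IgG mean (at least 5.72-fold against 6 counts). Snhg16 had 161, 133 and 84 in input and 41, 51 and 78 in IgG. This makes acRIP at least 17.8-fold lower than the IgG mean (at least 8.91-fold against 6 counts). Together with Snhg11 they are the listed noncoding hosts called lower than both controls. Over all 284 tested genes that span an annotated snoRNA, coding ones included, 5.63% were called higher than both and 14.8% lower.

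**Figure D3:**
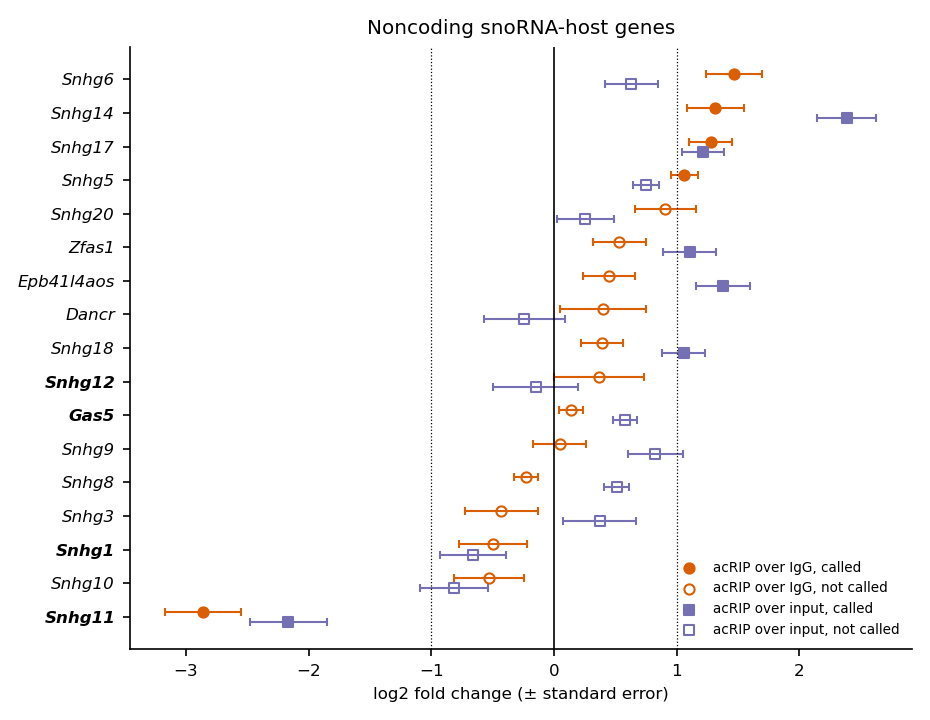
Log2 fold change (horizontal axis) of tested noncoding snoRNA-host genes in acRIP over IgG and acRIP over input, with bars of 1 standard error. Members are in bold, filled symbols were called, and dotted lines mark a fold change of 2. Snhg15 and Snhg16 are not drawn because they had 0 counts in acRIP and have only bounds, and Snhg11 is the lowest gene drawn.

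Cytidine content and the study's testis motif were set beside recovery as a description. With its ambiguous positions opened to N, the motif CNCAGNNC occurred 1.44 times per kilobase in Neat1, beside a median of 1.46 over genes with counts, 0.716 times in Malat1, 1.41 in Snhg11, 3.33 in Snhg12 and 0.337 in Snhg1. Cytidine made up 22.2% of Neat1, 23.3% of Snhg11 and 17.1% of Malat1, with a median of 23.4%. Neat1 was below the median on both measures. Any link between these measures and recovery was not tested.

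For 6 of the tested members, the gene of nearest pattern is given, which was the one with the smallest Euclidean distance between centred log2 CPM over the 9 libraries, among tested genes of like mean level. It was Stk35 for Malat1 (distance 0.268, median over the genes compared 3.92) and Spats2 for Kcnq1ot1 (0.203, median 1.97). For the hosts it was Clta for Gas5 (0.209), Gm7335 for Snhg1 (0.292), Cobl for Snhg11 (0.922) and Hoxa3 for Snhg12 (0.814). Snhg11 and Snhg12 had the farthest neighbours of these.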

How the data were processed

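Poly(A) RNA of wild-type mouse testis was sequenced as 3 input, 3 IgG and 3 acRIP libraries, grouped by the sample labels. The authors deposited counts of uniquely mapped reads per gene, made with Trim Galore 0.6.7, STAR 2.7.10a (mm10) and featureCounts 2.0.2 per the submitters' processing notes, together with other values, the merged exon length of each gene. Annotation release, strand setting and the counting of mates are not given in the sources used here. Libraries were made by Smart-seq2 from oligo(dT) primers with pre-amplification, so reads are not independent molecules.

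Identifiers were matched without version to GENCODE vM21 (55141 of 55401). Counts were tested with edgeR 4.0.16 in R 4.3.3 (filterByExpr, TMM, quasi-likelihood, 1 mean per group over 9 libraries), with Benjamini-Hochberg adjustment over 22510 genes. CPM used TMM-scaled library sizes, and FPKM used counts, lengths and total counts on genes. On simulated counts with 200 genes changed 3- or 4-fold in acRIP, of which 194 were tested among 21495 genes, edgeR called 185 over IgG and 184 over input, with 0 and 1 unchanged genes called. The simulation gave every gene the same dispersion and changed few genes, equally up and down. In the data 32.4% of genes were called over IgG and 40.6% over input. The simulation therefore does not give the error rate of these calls, nor of changes near 2-fold. Alternatives were other normalizations and filters, DESeq2 1.42.0, limma 3.58.1 on log2(FPKM + 1), no fold limit, fits of 6 libraries, halved counts, a replicate block, and omission of single libraries. In the limma alternative the p-values came from limma, and the fold change was the ratio of mean FPKM + 1. All 9 members are named, together with list genes called against both controls and, for tested members, the gene of nearest pattern with a mean log2 CPM within 1 of its own. List genes called in a single comparison, and Kcnq1, Dlk1, Rtl1 and Rian, were named after their values were seen. Members and lists were chosen with earlier results of these data known. The listed hosts Snhg4 and Snhg7 found no match, and Cyrano is another name of Oip5os1, which is in the same list. Some named results are not reported here.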

Additional observations from a re-analysis of the deposited data

How the results depend on the processing

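Of 396 values of the tested members under 19 alternatives, 381 kept their direction and side of the thresholds, 7 newly passed, 6 no longer passed and 2 changed sign. With single libraries left out, Snhg1 in IgG over input ran from -0.34 to 0.0354 (without IgG replicate 1), and Snhg12 in acRIP over input from -0.41 to 0.0757 (without acRIP replicate 1). On log2(FPKM + 1), which compresses genes with an FPKM near or below 1, the members called numbered 0 in acRIP over IgG, 1 in acRIP over input, 1 in IgG over input and 0 against both. With at least 10 counts in every library Snhg11 left the fit, and 1 member was called in acRIP over IgG and 1 against both. Without a fold limit 4 were called in IgG over input. Without a fold limit the list counts were 10, 12, 10 and 8 (acRIP over IgG, acRIP over input, IgG over input, both) for other snoRNA hosts, 9 and 8 (over input only) for nuclear RNAs, 7, 8 and 4 (the single comparisons) for imprinted clusters and 12, 12, 11 and 5 for paraspeckle proteins. On FPKM + 1 they were 1, 2, 0 and 0 for hosts, 1, 0, 0 and 0 for nuclear RNAs, 1, 0, 0 and 0 for imprinted clusters, and 0 and 1 in acRIP over IgG and over input for paraspeckle proteins. With at least 10 counts, 2 hosts were called against both, and imprinted genes numbered 2, 2, 0 and 2. DESeq2 called 7 imprinted genes in acRIP over IgG and 2 in IgG over input, and no filter 3 in the latter. Upper quartile normalization called 0 hosts in IgG over input and 2 paraspeckle genes in acRIP over IgG. The 6-library fit and halved counts each called 5 nuclear RNAs in IgG over input. Leaving out single libraries gave 1 to 2 hosts (2 without IgG replicate 1 or input replicate 3, and 1 lower in place of 1 higher without IgG replicate 3) and 2 to 5 nuclear RNAs (2 without IgG replicate 2, 5 without IgG replicate 1) in IgG over input, and 0 to 2 paraspeckle genes in acRIP over IgG (2 without IgG replicate 1, 0 without acRIP replicate 3). The other changes have no tested cause.

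Same-numbered libraries had deviations that correlated between -0.01 and 0.03, so no pairing by number was seen. Such a check cannot exclude pairing whose effect is smaller than the noise of the counts. With a replicate block, 2 members were called in acRIP over IgG, 4 in acRIP over input, 2 in IgG over input and 2 against both. The depth leaves Meg3 and H19 as bounds, and 3 libraries per group limit Snhg12 most.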
